A study of Mus musculus with 8 samples.

Results

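The interleukin-6 (IL-6) family was followed by 10 genes in Lacun3 cells, a line from mouse lung adenocarcinoma, chosen by name: the ligand genes Il6, Il11 and Lif, the receptor genes Il6ra, Il11ra1, Lifr, Osmr and Il6st, the feedback inhibitor gene Socs3 and the transcription factor gene Stat3. All 10 had a row among the 56884 genes of the count table. Messenger RNA was measured by bulk RNA sequencing in 4 libraries of the parental line, labelled STK11 WT, and 4 libraries of a line made from it by CRISPR targeting of Stk11, labelled STK11 KO. Stk11 encodes LKB1, a tumour suppressor kinase. Both lines were untreated cultures grown in DMEM with fetal bovine serum and antibiotics and harvested in logarithmic growth. The labels name 1 knockout line, and do not say whether it is a clone or a pool, so the comparison is between these lines. The submitters describe the replicates as biological.

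Cytokines of the IL-6 family signal through receptor complexes that contain gp130, the product of Il6st. IL-6 first binds its own receptor subunit (Il6ra) and IL-11 binds its own (Il11ra1), and both then engage gp130, whereas LIF joins the LIF receptor (Lifr) to gp130 and oncostatin M can join the oncostatin M receptor (Osmr) to gp130. The complexes activate JAK kinases, which phosphorylate STAT3, and STAT3 induces Socs3, whose product binds gp130 and blocks further signalling. In lung tumours the pathway is known as a link between inflammation and growth, and a cell that carries both gp130 and the matching receptor subunit can respond to its own cytokine. IL-6 or IL-11 bound to a soluble form of its receptor subunit can also act on cells that carry gp130 alone, which is known as trans-signalling.

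The libraries held 18837263 to 21101904 counts in STK11 WT and 21441601 to 25715008 in STK11 KO, and a single count equals 0.0388 to 0.0515 CPM (counts scaled to TMM-adjusted library size). Stk11 was 66.3 ± 1.79 CPM (SD, n = 4) in STK11 WT and 34.7 ± 0.853 CPM in STK11 KO, a log2 fold change of -0.93 ± 0.06 (SE; edgeR quasi-likelihood test, adjusted p = 2.03e-12). Epithelial markers (Epcam, Cdh1, Krt8, Krt18, Krt19) summed to 8160 to 8590 CPM in STK11 WT and 7700 to 8610 CPM in STK11 KO. Of 5 alveolar type 2 cell genes, Sftpc and Sftpa1 had 0 counts, the lung factor gene Nkx2-1 and Sftpb had 1 count each in all libraries together, and Napsa had 1.32 ± 0.469 CPM in STK11 WT and 1.07 ± 0.49 CPM in STK11 KO (SD, n = 4). The list summed to 0.667 to 1.81 CPM and 0.695 to 1.78 CPM. Of 13707 genes tested, 68% passed at an adjusted p under 0.05, 34.4% higher and 33.6% lower in STK11 KO, so a called change is the usual state of a gene here.

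Among the IL-6 family genes, the 3 ligand genes rose, the ligand-binding receptor genes moved in different directions, and the shared receptor gene Il6st fell. Of the 10 members 9 had enough counts to be tested; 5 rose (Il6, Il11, Lif, Osmr, Socs3), 3 fell (Il11ra1, Il6st, Stat3), and Il6ra did not pass. Lifr was too low to test. All 5 rises were at least 2-fold, a size reached upward by 7.02% of all tested genes, and none of the 3 falls was, against 9.41% of tested genes. Il6 and Osmr passed the filter on low counts only through the STK11 KO libraries, so that a difference was built into their being tested. In 60.6% of all tested genes the libraries of the 2 lines did not overlap, and the same held for 8 of the 9 tested members. The members were chosen with earlier results of these data known, so these shares are a background and not a test of the family.

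**Figure D1:**
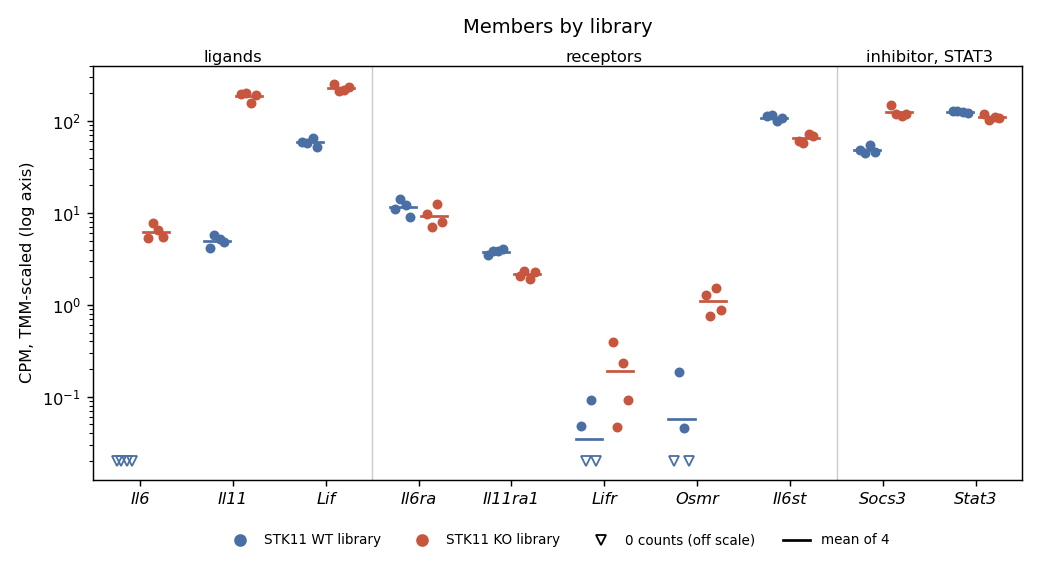
Each point is 1 library and each bar the mean of 4; the vertical axis is CPM on a log scale, with open triangles for libraries of 0 counts placed off the scale. All ligand points of STK11 KO (159 to 204 CPM for Il11) lie above those of STK11 WT, the Il6st points lie below, and Lifr and Osmr stay under 2 CPM in every library.

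Ligand genes showed the widest separation. Il6 (ENSMUSG00000025746.12, chromosome 5, 30218112 to 30224979, plus strand, GRCm39), an inflammatory cytokine gene, had 0 counts in all 4 STK11 WT libraries, which allows up to 0.0358 CPM over the group. In STK11 KO replicates 1 to 4 it stood at 5.35, 7.77, 6.45 and 5.51 CPM. Every knockout library thus had the transcript and no parental library did, with a level at least 176-fold higher if the parental group is set at 3 counts in all, a floor that covers counting error only (edgeR adjusted p = 1.6e-12).

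Il11 (ENSMUSG00000004371.16, chromosome 7, 4775372 to 4785858, minus strand), which encodes a cytokine known from fibrosis and from epithelial tumours, was at 4.19, 5.75, 5.18 and 4.84 CPM in STK11 WT. The STK11 KO libraries gave 195, 204, 159 and 193 CPM. The lowest knockout value, in replicate 3, was far above the highest parental one, and the log2 fold change was 5.23 ± 0.10 (SE; edgeR adjusted p = 1.9e-21).

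Lif (ENSMUSG00000034394.15, chromosome 11, 4207557 to 4222514, plus strand), the gene of leukaemia inhibitory factor, was already well expressed in the parental line, at 58.9, 58.0, 66.2 and 52.4 CPM. In STK11 KO it reached 250, 214, 219 and 233 CPM. The groups did not overlap and the log2 fold change was 1.96 ± 0.07 (SE; edgeR adjusted p = 7.28e-17), which was the smallest change of the 3 ligand genes.

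Other ligand genes of the family were near the detection limit apart from Clcf1. Clcf1, which encodes cardiotrophin-like cytokine factor 1, had 38.0 ± 4.22 CPM in STK11 WT and 39.4 ± 2.54 CPM in STK11 KO (SD, n = 4), with a log2 fold change of 0.05 ± 0.08 (SE; edgeR adjusted p = 0.568). The remaining 7 of the 8 (Osm, Cntf, Ctf1, Ctf2, Il27, Ebi3 and Il31) were too low to test. Osm, the oncostatin M gene near Lif on chromosome 11, had 2 counts over the STK11 WT group and 12 over the STK11 KO group, a ratio of 5.67 with a 95% counting interval of 1.26 to 52.1.

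Beside the ligands, markers of other cell types that make IL-6 were low. The fibroblast genes Col1a2 and Lum had 0 counts, and the 6 fibroblast markers summed to 3.04 to 4.81 CPM in STK11 WT and 2.03 to 2.97 CPM in STK11 KO. Of the macrophage and leukocyte markers Adgre1 had 0 counts and Ptprc had 1; the sum of all 6 was 46.7 to 53.2 CPM in STK11 WT and 13.0 to 25.6 CPM in STK11 KO, nearly all of it from Cd68, a lysosomal gene not limited to macrophages. Among 4 endothelial markers Kdr had 0 counts, while the sum was 1.05 to 1.85 CPM in STK11 WT and 3.42 to 4.81 CPM in STK11 KO, nearly all from Cdh5. The part of these cells in the ligand levels was not tested.

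The receptor genes divided into a well expressed shared subunit, a pair of modest ligand-binding subunits and a pair near the detection limit. Il6st (ENSMUSG00000021756.13, chromosome 13, 112600604 to 112646620, plus strand) had 113, 116, 101 and 107 CPM in STK11 WT. It had 60.7, 57.8, 72.2 and 68.3 CPM in STK11 KO, all below the parental range (log2 fold change -0.75 ± 0.07, SE; edgeR adjusted p = 1.43e-09). Bulk counts do not tell fewer expressing cells from less transcript in each cell, here or for any other gene below.

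Il11ra1 (ENSMUSG00000073889.11, chromosome 4, 41699989 to 41769474, plus strand), the IL-11 receptor subunit gene, was at 3.48, 3.85, 3.81 and 4.02 CPM in STK11 WT. In STK11 KO it was at 2.08, 2.31, 1.90 and 2.27 CPM. The groups did not overlap, and the gene fell by 0.83 on the log2 scale (± 0.16, SE; edgeR adjusted p = 7.16e-05) while its ligand gene rose. The annotated span of Il11ra1 covers 3468 bp of Galt on the same strand, and no source used here says how reads in shared stretches were counted. Its copy Il11ra2 had 0 counts in every library, and reads that match both copies may have been lost, so the level of Il11ra1 is uncertain.

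Il6ra (ENSMUSG00000027947.12, chromosome 3, 89771366 to 89820503, minus strand), the IL-6 receptor subunit gene, had 11, 14.1, 12.3 and 9.12 CPM in STK11 WT and 9.76, 7.11, 12.4 and 7.92 CPM in STK11 KO. The groups overlapped, through knockout replicate 3 at the top and parental replicate 4 at the bottom (log2 fold change -0.32 ± 0.16, SE; edgeR adjusted p = 0.0892). Leaving out STK11 KO replicate 3 gave -0.50 (edgeR adjusted p = 0.00224), and leaving out STK11 WT replicate 4 gave -0.41 (edgeR adjusted p = 0.0241). With library size alone as the scale the value was -0.40 (edgeR adjusted p = 0.0355) and with no filter on low counts -0.31 (edgeR adjusted p = 0.00818). Leaving out STK11 WT replicate 2 gave -0.21 (edgeR adjusted p = 0.261), and leaving out STK11 KO replicate 2 gave -0.20 (edgeR adjusted p = 0.253). Il6ra passed in 5 of the 18 fits. Across all fits the adjusted p lay between 0.00224 and 0.261, and the value was below 0 in each.

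Lifr and Osmr, which lie close together on chromosome 15, were close to the limit of detection. Lifr (ENSMUSG00000054263.13, 7120095 to 7226970, plus strand), the LIF receptor gene, had 3 counts over the 4 STK11 WT libraries (1, 0, 2 and 0) and 17 over the 4 STK11 KO libraries (8, 1, 6 and 2). The ratio of 5.35 had a 95% counting interval of 1.55 to 28.5, and the libraries overlapped. Without the filter on low counts Lifr had a log2 fold change of 2.25 (edgeR adjusted p = 0.028); DESeq2 gave an adjusted p of 0.0973 and limma on the deposited values one of 0.061.

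Osmr (ENSMUSG00000022146.13, 6843058 to 6904450, minus strand), the oncostatin M receptor gene, had 0, 0.185, 0.0459 and 0 CPM in STK11 WT. Its STK11 KO values were 1.29, 0.754, 1.51 and 0.880 CPM, all above the parental ones (log2 fold change 4.11 ± 0.57, SE; edgeR adjusted p = 5.18e-07). In absolute terms this was a rise from 5 counts to 100 counts over the groups. STK11 WT replicate 2 held most of the 5, and without it the log2 fold change was 5.69 and still passed. Of the other receptor genes Il31ra had 0 counts, Cntfr had 0.449 ± 0.203 CPM in STK11 WT and 0.517 ± 0.207 CPM in STK11 KO (SD, n = 4), and Il27ra had 0.371 to 0.979 CPM in STK11 WT against 0 to 0.194 CPM in STK11 KO; none of these was tested.

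Whether ligand and receptor transcripts occur in the same culture was read from levels per kilobase of exon (RPKM, with exon lengths from the mouse GENCODE M21 annotation), since counts of different genes are comparable only per length. For IL-11, the ligand gene went from 2.40 ± 0.312 to 90.0 ± 9.45 RPKM (SD, n = 4) and its receptor gene Il11ra1 from 0.846 ± 0.0506 to 0.478 ± 0.0418 RPKM. Within single libraries the ratio of Il11 to Il11ra1 was 2.59 to 3.21 in STK11 WT and 179 to 201 in STK11 KO. It was 1.45 to 1.8 and 101 to 113 if only basic transcripts set the exon lengths, so its size depends on the annotation. Counts were therefore assigned to both genes in all 8 libraries, in very unequal amounts in the knockout line. The level of Il11ra1 is uncertain, given its overlap with Galt and its copy Il11ra2.

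For IL-6, the ligand transcript was detected in STK11 KO alone, at 2.58 ± 0.457 RPKM (SD, n = 4), beside 1.07 ± 0.269 RPKM of Il6ra. Their ratio was 1.86 to 3.89 across the 4 STK11 KO libraries, while the STK11 WT libraries had 1.35 ± 0.244 RPKM of the receptor transcript and 0 counts of the ligand. For LIF, the ligand gene stood at 13.5 ± 1.29 RPKM in STK11 WT and 52.6 ± 3.75 RPKM in STK11 KO, whereas Lifr stood at 0.00323 ± 0.00408 and 0.0178 ± 0.0146 RPKM. The Lif ligand transcript was thus abundant in both lines with its own receptor transcript barely detected in either. Bulk libraries show transcripts of a culture, not of single cells, and say nothing of receptor protein.

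**Figure D2:**
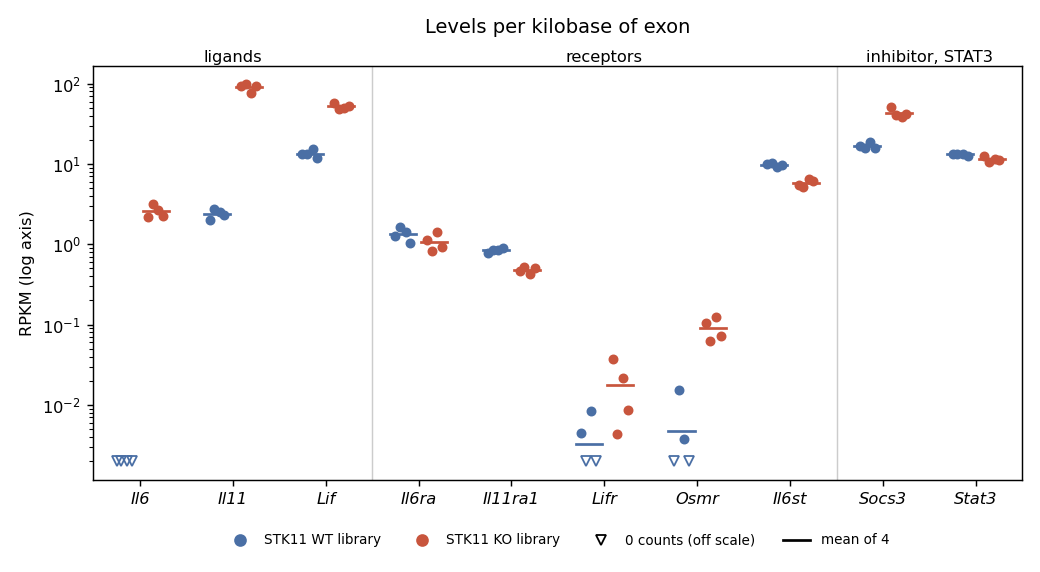
Levels per kilobase of exon (RPKM, log axis) for the 10 members in every library; bars are means of 4 and open triangles mark 0 counts, off the scale. In STK11 KO the ligand genes Il11 and Lif (90.0 and 52.6 RPKM) are the highest of the 10, and Lifr (0.0178 RPKM) is the lowest.

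The order of the members by RPKM changed between the lines. In STK11 WT it was Socs3 (16.8), Lif (13.5), Stat3 (13.2), Il6st (9.81), Il11 (2.40), Il6ra (1.35), Il11ra1 (0.846), Osmr (0.00477), Lifr (0.00323) and Il6 (0). Lif and Stat3 overlapped between libraries there, as did Osmr with Lifr and Lifr with Il6. In STK11 KO the order was Il11 (90.0), Lif (52.6), Socs3 (43.2), Stat3 (11.4), Il6st (5.83), Il6 (2.58), Il6ra (1.07), Il11ra1 (0.478), Osmr (0.0915) and Lifr (0.0178), with an overlap of Lif and Socs3 and of no other neighbours. The ratio of Il11ra1 to Il6st was 0.0766 to 0.094 in STK11 WT and 0.0655 to 0.0992 in STK11 KO, with overlapping ranges (0.135 to 0.165 and 0.115 to 0.175 with basic transcripts). The ratio of Il6ra to Il6st was 0.109 to 0.157 and 0.149 to 0.22. If only basic transcripts set the exon length, Il11ra1 has 1.51 and 0.852 RPKM in STK11 WT and STK11 KO. In the same order, Osmr has 0.0105 and 0.202 RPKM and Stat3 20.2 and 17.5 RPKM. By these means Stat3 stands above Socs3 (19.0 RPKM) and Il11ra1 above Il6ra (1.35 RPKM) in STK11 WT.

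Downstream, the inhibitor gene rose and the transcription factor gene changed little. Socs3 (ENSMUSG00000053113.4, chromosome 11, 117856905 to 117860873, minus strand), whose transcription STAT3 is known to drive, had 48.7, 45.4, 54.3 and 46.2 CPM in STK11 WT. The STK11 KO libraries had 149, 118, 113 and 120 CPM, with no overlap (log2 fold change 1.36 ± 0.08, SE; edgeR adjusted p = 6.3e-12). Stat3 (ENSMUSG00000004040.17, chromosome 11, 100775924 to 100830366, minus strand) had 128, 129, 125 and 121 CPM in STK11 WT and 119, 102, 110 and 107 CPM in STK11 KO. Its groups were separate by a narrow gap, and it fell by 0.21 on the log2 scale (± 0.06, SE; edgeR adjusted p = 0.00226). STAT3 is controlled mainly by phosphorylation, which these counts do not measure. The annotated end of Stat3 overlaps Stat5a on the other strand by 72 bp.

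Promoter windows of the 5 members that rose are shown because 4 of these members match a short AP-1 pattern, written for sites of FOS and JUN factors. The middle letter of the pattern was free, and the Osmr match (TGATTCA) differs there from the matches of Il6, Il11 and Lif. All 10 members had a window in the RefSeq promoter table (13 windows, since Il11, Il11ra1 and Lifr have 2 start sites each), which covers 250 bases before the start site and 50 from it on, in build GRCm38.p6 and not in that of the counts. Letters in capitals mark matches on either strand to the AP-1 letters TGANTCA, the STAT letters TTCNNNGAA or the loose NF-kB letters (GGG, any 5 bases, CC), and overlapping matches run together. The windows, 5′ to 3′ on the strand of each gene, are Il6 at chr5:30012864-30013163 (plus strand), the second start site of Il11 at chr7:4778092-4778391 (minus strand), Lif at chr11:4257318-4257617 (plus strand), Osmr at chr15:6874264-6874563 (minus strand) and Socs3 at chr11:117969317-117969616 (minus strand).
Il6: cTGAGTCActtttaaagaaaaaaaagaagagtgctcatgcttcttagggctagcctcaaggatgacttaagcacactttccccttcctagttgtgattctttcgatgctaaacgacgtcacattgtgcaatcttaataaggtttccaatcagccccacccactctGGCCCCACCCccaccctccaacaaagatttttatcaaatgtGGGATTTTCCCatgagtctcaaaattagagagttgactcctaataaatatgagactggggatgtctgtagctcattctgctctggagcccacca
Il11: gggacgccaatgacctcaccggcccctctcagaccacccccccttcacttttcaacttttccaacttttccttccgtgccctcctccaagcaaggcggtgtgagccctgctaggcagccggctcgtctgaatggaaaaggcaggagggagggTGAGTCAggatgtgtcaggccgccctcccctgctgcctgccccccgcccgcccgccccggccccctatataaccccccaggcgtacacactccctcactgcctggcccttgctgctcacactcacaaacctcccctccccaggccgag
Lif: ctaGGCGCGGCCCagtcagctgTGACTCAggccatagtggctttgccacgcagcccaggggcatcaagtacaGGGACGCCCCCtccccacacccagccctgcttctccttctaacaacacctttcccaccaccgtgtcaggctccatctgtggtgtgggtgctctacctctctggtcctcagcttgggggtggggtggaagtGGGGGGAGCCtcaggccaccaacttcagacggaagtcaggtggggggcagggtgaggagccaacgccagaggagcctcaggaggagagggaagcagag
Osmr: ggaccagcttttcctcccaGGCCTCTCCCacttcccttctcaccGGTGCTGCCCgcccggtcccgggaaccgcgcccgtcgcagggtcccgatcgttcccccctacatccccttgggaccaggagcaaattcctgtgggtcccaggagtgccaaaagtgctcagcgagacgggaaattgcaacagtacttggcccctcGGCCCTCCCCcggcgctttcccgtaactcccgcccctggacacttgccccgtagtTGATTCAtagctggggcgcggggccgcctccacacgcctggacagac
Socs3: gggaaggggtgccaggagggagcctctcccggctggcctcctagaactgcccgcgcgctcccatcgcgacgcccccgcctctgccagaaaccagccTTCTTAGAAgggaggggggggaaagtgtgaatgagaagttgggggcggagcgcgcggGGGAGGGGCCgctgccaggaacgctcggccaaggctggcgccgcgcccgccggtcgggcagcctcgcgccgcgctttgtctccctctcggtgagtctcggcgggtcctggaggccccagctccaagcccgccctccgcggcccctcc

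AP-1 letters stood in the windows of Il6 (TGAGTCA, from position -249), Il11 (TGAGTCA, -98), Lif (TGACTCA, -228) and Osmr (TGATTCA, 3), with the start site at position 0. They were in no window of the other 6 members. For Il11 the match was at the second start site, and the window of the first, not shown, had no AP-1 letters. Il6, Il11, Lif and Osmr are the ligand genes and the receptor gene that rose, while Socs3 also rose and had no AP-1 letters. The AP-1 letters were in 4 of the 13 member windows and in 7.81% of all 32851 RefSeq windows. Whether they have a part in the rises was not tested. STAT letters were in the Socs3 window alone (TTCTTAGAA, -154), against 8.3% of all windows. NF-kB letters as loose as these were in 10 of the 13 member windows and in 50.8% of all, and Il6 had the match GGGATTTTCC at -44. The cyclic AMP response letters TGACGTCA, present in 1.79% of all windows, were in no member window. Only these exact letters were searched, and shorter or altered forms were not counted. The Il6 window holds cgacgtca, which differs from them in the first letter. A match is a run of letters only, and no binding was measured.

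**Figure D3:**
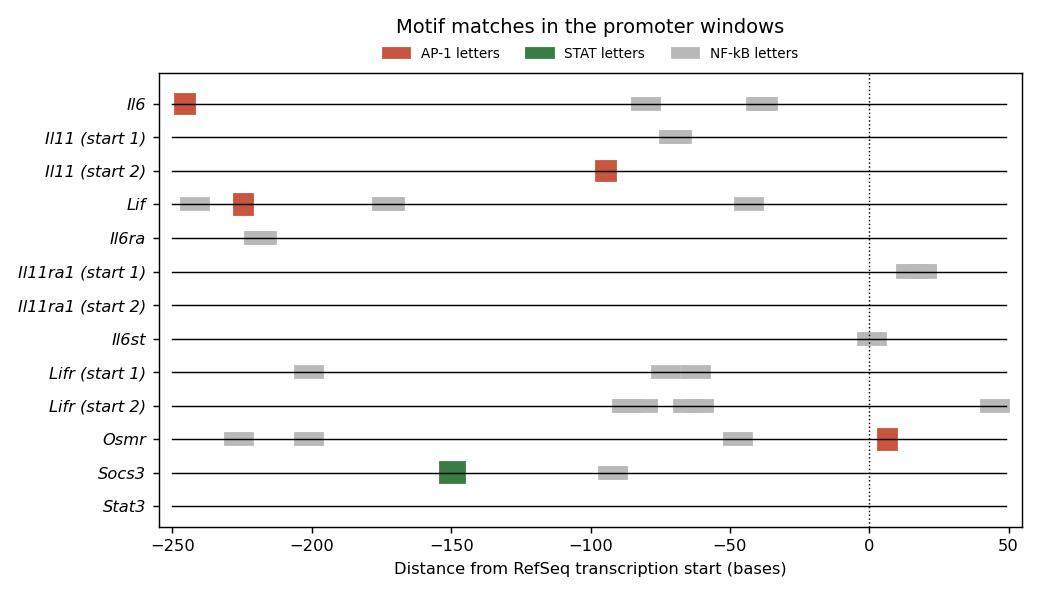
Each line is 1 promoter window of a member, with the distance from the RefSeq start site in bases on the horizontal axis; boxes mark AP-1, STAT and NF-kB letters on either strand. AP-1 boxes appear in 4 windows, those of Il6, Il11 (second start site), Lif and Osmr.

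JAK kinase genes moved in both directions. Of 10 genes for JAK kinases and the other STAT factors, 9 were tested. Of these 4 rose, 4 fell and Stat2 did not pass, where 68% of all tested genes passed. The median log2 fold change was 0.22, against 0.01 over all tested genes. Jak2, a kinase used by gp130 and by many cytokine receptors, rose from 64.5 ± 2.15 to 108 ± 7.29 CPM, and Jak1, the main kinase of gp130, from 166 ± 4.41 to 194 ± 11.8 CPM (SD, n = 4). Tyk2, the remaining gp130-associated kinase gene, fell from 115 ± 7.35 to 43.0 ± 3.30 CPM (log2 fold change -1.42 ± 0.06, SE; edgeR adjusted p = 8.13e-15). Stat5a fell from 17.3 ± 1.09 to 6.35 ± 0.155 CPM, and Cish, an inhibitor gene known to be induced by STAT5, from 6.32 ± 0.855 to 2.31 ± 0.318 CPM.

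Inhibitors of the pathway went both ways. Of 15 SOCS, PIAS and phosphatase genes besides Socs3, 6 rose, 6 fell and 3 did not pass, where 68% of all tested genes passed. The median log2 fold change of the list was -0.10. Socs1 rose from 7.16 ± 0.658 to 10.6 ± 1.51 CPM and Socs2 from 7.13 ± 0.751 to 11.1 ± 1.59 CPM (SD, n = 4). Ptpn11, the SHP2 phosphatase gene whose product binds the same gp130 site as SOCS3, fell from 132 ± 6.88 to 104 ± 10.1 CPM. All of these changes were under 2-fold, whereas that of Cish was above it.

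Of the receptor shedding genes, 3 rose and none of them reached 2-fold. ADAM10 and ADAM17 are proteases that can release the IL-6 receptor from the cell surface, and RHBDF2 carries ADAM17 there. The list has 4 genes, and 34.4% of all tested genes were called higher. Adam17 rose from 93.5 ± 4.22 to 157 ± 10.2 CPM (log2 fold change 0.75 ± 0.06, SE; edgeR adjusted p = 9.13e-11), Rhbdf2 from 91.4 ± 3.06 to 118 ± 8.82 CPM and Adam10 from 221 ± 10.1 to 269 ± 26.4 CPM (SD, n = 4). Rhbdf1 had a log2 fold change of -0.04 ± 0.06 (SE; edgeR adjusted p = 0.617). The median log2 fold change of the list was 0.32, beside 0.01 over all tested genes.

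Genes known as STAT3 targets moved both ways. Of 27 listed, 22 were tested. Of these 11 rose, 10 fell and Bcl6 missed the threshold, where 34.4% of all tested genes rose and 33.6% fell. The median log2 fold change was 0.07, beside 0.01 over all tested genes. The acute-phase gene Saa3 rose from 12.1 ± 1.52 to 105 ± 23.5 CPM, the siderophore-binding gene Lcn2 from 324 ± 18 to 872 ± 91.5 CPM and the AP-1 gene Fos from 16 ± 1.77 to 51.0 ± 4.56 CPM (SD, n = 4). In the other direction Myc fell from 1010 ± 17.4 to 355 ± 12.3 CPM, the cyclin gene Ccnd1 from 2030 ± 67.2 to 721 ± 29.3 CPM and the survival kinase gene Pim3 from 140 ± 2.82 to 73.0 ± 9.23 CPM. These genes also answer to other factors, and the list was written from general knowledge. The fibrinogen genes Fga and Fgg, acute-phase targets in liver, had 0 counts.

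Regulators of Il6 messenger stability moved both ways. Of 8 listed genes 5 rose, 1 fell and 2 did not pass (median log2 fold change 0.26, beside 0.01 over all tested genes), where 68% of all tested genes passed. Arid5a, an RNA-binding protein known to stabilise Il6 transcripts, rose from 9.05 ± 0.823 to 33.4 ± 4.58 CPM (log2 fold change 1.89 ± 0.10, SE; edgeR adjusted p = 1.67e-13). Zfp36l1, of a family that promotes decay of AU-rich transcripts, fell from 289 ± 12.8 to 89.3 ± 5.51 CPM (log2 fold change -1.69 ± 0.06, SE; edgeR adjusted p = 4.59e-17). In the same family Zfp36 rose from 22.4 ± 2.46 to 31.8 ± 7.14 CPM, with overlapping libraries (log2 fold change 0.50, edgeR adjusted p = 0.00935). Zfp36l2, at 547 ± 31.6 and 509 ± 50.9 CPM, did not pass (edgeR adjusted p = 0.159). Zc3h12a, the gene of the Il6-degrading nuclease Regnase-1, rose from 114 ± 5.36 to 174 ± 13.5 CPM (log2 fold change 0.62 ± 0.06, SE; edgeR adjusted p = 3.61e-09).

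**Figure D4:**
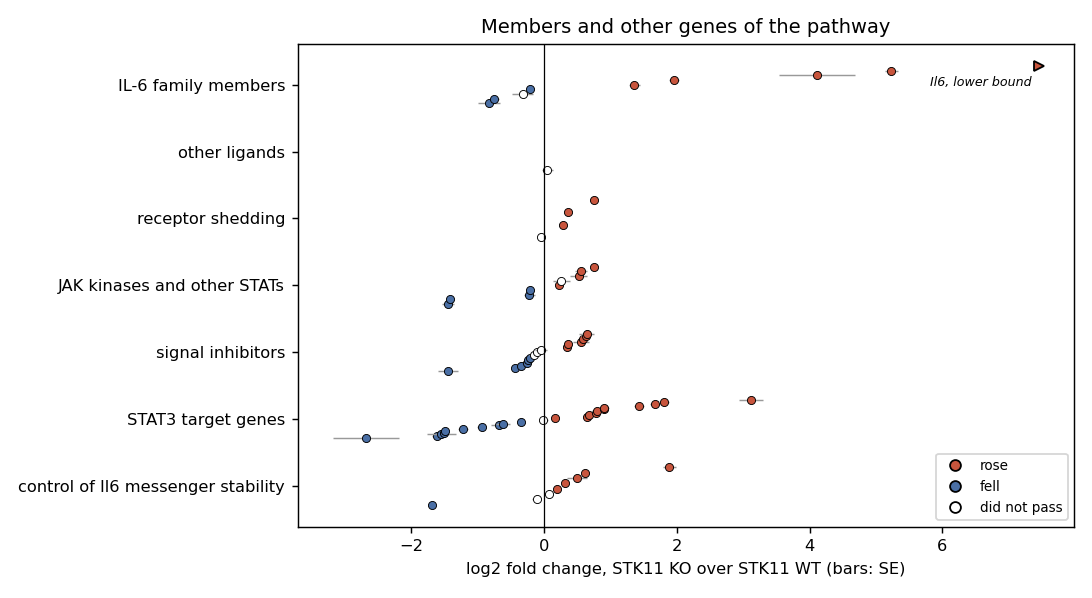
Log2 fold changes (STK11 KO over STK11 WT, bars SE) of the tested members and of 6 other pathway lists; red points rose, blue points fell and white points did not pass. The Il6 arrowhead is its lower bound (176-fold); every list with more than 1 tested gene has points on both sides of 0.

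The genes closest to Il6 and Il11 in pattern were sought among 11489 tested genes by the distance between profiles over the 8 libraries, each profile being log2(CPM + 0.5) minus the STK11 WT mean. Nearest to Il6 were Slpi, a secreted protease inhibitor gene (distance 0.48; 27.1 ± 2.27 to 345 ± 6.28 CPM, SD, n = 4), Slc6a14, an amino acid transporter gene (0.57), and Serpinb2, the gene of plasminogen activator inhibitor 2 (0.59). Nearest to Il11 were Gng2, a G protein subunit gene (distance 0.48; 0.168 ± 0.0519 to 21.0 ± 1.52 CPM), Ly6m (0.66) and Sprr2d, of the small proline-rich cornified envelope family (0.70). With 2 groups the measure is set mostly by the size of the step between them, and the added 0.5 CPM shortens that step for genes with few counts. Sprr2d belongs to a family of near-identical copies, so its counts are uncertain.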

How the data were processed

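Messenger RNA of 4 STK11 WT and 4 STK11 KO cultures of Lacun3 cells was sequenced from stranded, paired-end libraries, per the labels' protocols. In the submitters' processing notes STAR 2.7.9a, featureCounts 1.6.0, FastQC 0.11.8, limma, edgeR and GRCm39 are named without a role; no source used here gives the strand setting or the treatment of multi-mapped reads. Raw counts of 56884 genes were deposited. A second table deposited by the authors held log2 CPM of voom for 15726 genes and was used for 1 alternative. The members and lists were chosen with earlier results of these data known; lists were written from general knowledge. The named genes were all members, Stk11, genes of the pathway lists and the 3 profiles nearest to Il6 and to Il11, passing over predicted genes.

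Genes were tested with edgeR 4.0.16 (quasi-likelihood test, robust, genotype as the only term, TMM scaling, filterByExpr with a minimum count of 10) over 13707 genes, with Benjamini-Hochberg adjustment over all of them and a threshold of 0.05. "Rose" and "fell" mean passing it. The SE of a log2 fold change is its size over the square root of F. A group of 0 counts was given a floor of 3 counts over the group, and groups of 1 to 3 counts an exact (Clopper-Pearson) 95% interval of the ratio; these cover counting error only. RPKM used exon lengths of the GENCODE M21 annotation (GRCm38), matched by gene identifier for all 10 members, so lengths may differ from those counted. Promoter windows came from RefSeq (GRCm38.p6).

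The labels do not say that the replicate numbers pair the libraries, and the main fit used no pairing. Alternatives were DESeq2 1.42.0, limma-voom and limma on the deposited values (limma 3.58.1), 3 other scalings, 2 other filters, the replicate number as a block, and leaving out each library. The steps were tested on simulated data.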

Additional observations from a re-analysis of the deposited data

Results flagged for a closer look

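Groups of 4 libraries were examined for the members, Stk11 and some of the other pathway genes, not all of them named above. In 7 of 107 groups 1 library stood apart by Dixon's criterion at the 95% level, where chance gives about 1 in 20 groups. No member of the IL-6 family was among them. Among the ligands, Osm was at 0.0916 CPM in STK11 WT replicate 3 and 0 in the other 3. Rhbdf1 was at 80.4 CPM in STK11 KO replicate 1 and 68.5 to 69.0 CPM in the others. Jak3 was at 28.1 CPM in STK11 WT replicate 3 (others 19.9 to 20.8 CPM) and Tyk2 at 47.9 CPM in STK11 KO replicate 3 (others 41.0 to 41.8 CPM). Il4ra was at 126 CPM in STK11 WT replicate 3 (others 142 to 143 CPM) and Junb at 221 CPM in STK11 WT replicate 1 (others 242 to 246 CPM). Lcn2 was at 1010 CPM in STK11 KO replicate 3 and 809 to 841 CPM in the others.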

How the results depend on the processing

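Of the 10 members 8 were called changed, 7 to 10 under the other settings and 8 to 9 with 1 library left out; the 7 lacked Osmr, removed when 1 CPM was required in 4 libraries, and the 10 added Il6ra and Lifr without a filter. Among the 9 tested members Il6ra alone changed its call under an alternative, and none changed direction. Genes called changed numbered 9322, with 8723 to 10335 under other settings and 8921 to 9656 with 1 library left out; the other pathway genes called changed numbered 51, with 50 to 53 in both. Scaling by library size alone shifted the median log2 fold change by -0.082, with 3921 genes higher and 5280 lower in STK11 KO, against 4721 and 4601 with TMM. Of 60 other pathway genes tested, 7 changed their call in at least 1 alternative, and no gene changed direction except Clcf1, Rhbdf1, Ptpn6, Bcl6 and Rc3h1, which lay near 0 and passed in no setting. Among those that changed their call, Stat2 passed without STK11 KO replicate 3 (0.39, edgeR adjusted p = 0.000324) and without a filter (0.26, edgeR adjusted p = 0.00292). With the replicate number as a block 9182 genes were called, and Il6ra passed at -0.33 (edgeR adjusted p = 0.0356). Deviations of same-numbered libraries correlated at -0.10 to 0.04 across genes, and those of other pairs at -0.09 to 0.1. These values showed no sign of pairing by number but cannot exclude it. Levels per kilobase with basic transcripts alone (chosen after seeing the data) moved by more than 1 SD for Il11ra1 (1.51 and 0.852 RPKM in STK11 WT and STK11 KO), Stat3 (20.2 and 17.5), Socs3 (19.0 and 48.9), Lif in STK11 KO (56.5) and Osmr in STK11 KO (0.202); scaled by library size alone, Stat3 in STK11 WT moved to 13.6 RPKM. Depth limits Lifr, Osmr and Osm, where single counts set the values.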
